A study of Mus musculus with 2 samples.

Results

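Emx1, Emx2, Tbr1, Eomes, Bcl11b, Fezf2, Lhx6 and Lhx8 are transcription factor genes best known from the telencephalon, and they were measured here in midbrain RNA as a check on the dissection. The 8 genes were taken by symbol from the 43346 Ensembl genes of the deposited gene tables, and all 8 were found. B6NCrl mouse embryos of 16.5 days gave the midbrain tissue, whose total RNA was sequenced as 2 libraries, biological replicates 1 and 2, which form a single group. Each library came from pooled male and female embryos, 37 of them in replicate 2 and a number not given for replicate 1, with a starting amount of 10 ng of RNA and a size range above 200 nucleotides. Both pools carry the same donor identifier, and nothing in the labels says how the embryos were divided between them. No treatment or engineered allele is named in the labels.

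The telencephalon, the front of the forebrain, is divided into a dorsal pallium, which forms the cerebral cortex and hippocampus and makes glutamatergic neurons, and a ventral subpallium, which forms the striatum and basal forebrain and makes GABAergic and cholinergic neurons. Emx1 and Emx2 are homeobox genes of pallial progenitors, Eomes marks intermediate progenitors, Tbr1, Fezf2 and Bcl11b act in cortical projection neurons, and Lhx6 and Lhx8 are LIM homeobox genes of the ventral telencephalon. Bcl11b is also known from striatal neurons, which lie within the telencephalon. Several of these genes have known sites outside the telencephalon too. Bcl11b is known from T cells, Eomes from lymphocytes, and Lhx6 and Lhx8 from the mesenchyme of the face.

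Expected counts, the estimated number of reads per gene, summed to 31830355 in replicate 1 and 36576263 in replicate 2. Levels are given as TPM, a depth-scaled abundance corrected for transcript length, as the authors deposited them, and ± gives the SD about the mean of both libraries (n = 2). A single group of 2 libraries allows no test, so differences between the pools are given as values of these libraries only. In bulk tissue, fewer cells of a type and less RNA per cell cannot be told apart. The midbrain territory list, genes known from the midbrain but not all confined to it, had 14 of 18 genes that reached 1 TPM in each library. Its highest genes were Tfap2b at 151 ± 47.1 TPM, Gata3, a zinc finger gene of midbrain GABAergic neurons, at 74.3 ± 4.07 TPM, and Otx2, which sets up forebrain and midbrain, at 56.3 TPM in replicate 1 and 64.5 TPM in replicate 2. Much of the list was far lower: 7 of the 18 genes reached 10 TPM in each library, and the list median was 5.56 TPM in replicate 1 and 6.7 TPM in replicate 2. En1 was at 4.99 and 6.34 TPM, and En2, the lowest of the list, at 0.61 and 0.46 TPM.

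The first comparison asks how much RNA of these genes the dissected midbrain held. Bcl11b and Emx2 stood above the rest at 19.4 ± 0.544 and 10.5 ± 1.94 TPM, and the other 6 genes were below 5 TPM. A level of at least 1 TPM in both libraries was met by 7 of the 8 genes, all but Emx1, against 62.1% of all protein-coding genes and 35.1% of all Ensembl genes. At 10 TPM the count was 1 of 8, Bcl11b, against 41.2% of protein-coding genes. The order of the 8 levels was the same in both libraries, with Bcl11b and Emx2 followed by Lhx6, Lhx8, Tbr1, Fezf2, Eomes and Emx1.

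The 8 genes together summed to 43.4 TPM in replicate 1 and 44.1 TPM in replicate 2. Bcl11b and Emx2 held 64.8% and 71.8% of these sums. Between neighbours in the order, the ranges of the libraries did not overlap for Bcl11b over Emx2, for Emx2 over Lhx6, for Fezf2 over Eomes and for Eomes over Emx1. They overlapped for Lhx6 over Lhx8, Lhx8 over Tbr1 and Tbr1 over Fezf2, although within each library the order held for these pairs too. The authors' credibility intervals (level not stated) kept Bcl11b apart from Emx2 and Emx2 apart from Lhx6 in both libraries, and Fezf2 apart from Eomes in replicate 1 alone.

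**Figure D1:**
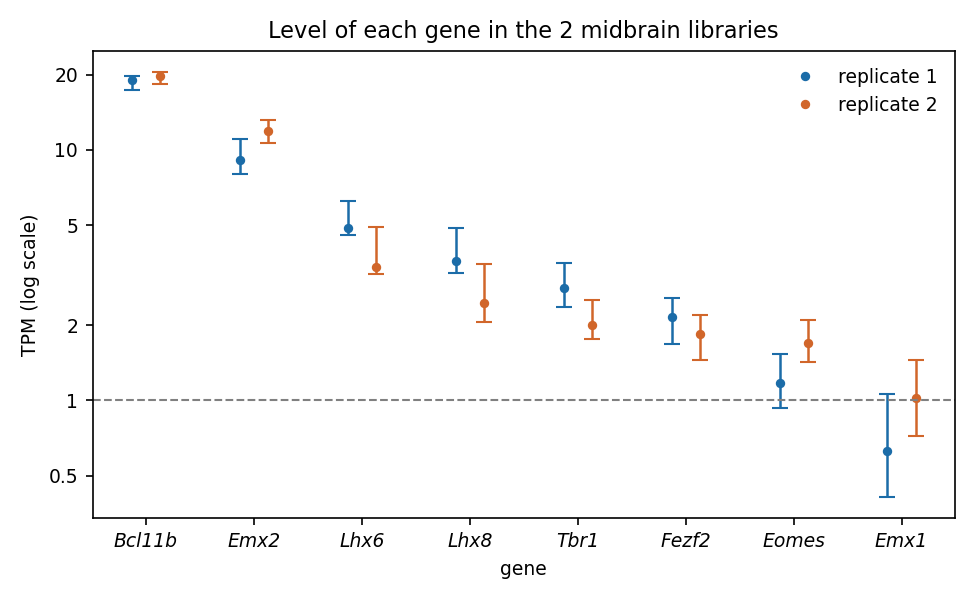
TPM of the 8 genes (log axis) in replicate 1 and replicate 2, with points for the deposited TPM and capped bars for the deposited credibility intervals; the dashed line is at 1 TPM. Bcl11b and Emx2 lie at 19.4 and 10.5 TPM on average, the other genes below 5 TPM, and Emx1 is below the line in replicate 1 only.

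Emx1, a homeobox gene confined in the early forebrain mostly to the pallium, was the lowest of the 8. It had 17 expected counts in replicate 1 and 31 in replicate 2, with exact Poisson 95% intervals of 9.90 to 27.2 and 21.1 to 44.0 counts, which cover counting error only. Its TPM was 0.630 and 1.02, with overlapping credibility intervals of 0.413 to 1.06 and 0.723 to 1.45. Emx1 (ENSMUSG00000033726.8) lies on the plus strand of chromosome 6 from 85187438 to 85204462 of GRCm38, the assembly also called mm10. The coding transcript Emx1-201, of 3 exons, took all of its TPM in replicate 1 and 83.6% in replicate 2, and the retained-intron form Emx1-202 took the remainder, 16.4%, from 4.17 expected counts.

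Emx2, a homeobox gene that patterns the cortex along its length and is also needed for the urogenital tract, was 13.0-fold above Emx1 (log2 3.70 ± 0.22). Its TPM was 9.14 in replicate 1 and 11.9 in replicate 2, from 305 and 488 expected counts. The credibility intervals, 8.05 to 11.1 and 10.7 to 13.1 TPM, overlapped. Emx2 (ENSMUSG00000043969.4) lies on the plus strand of chromosome 19 from 59458372 to 59465357. Of the 8 genes it alone had a count that was not whole, with a deposited posterior SD of 0.860 and 1.26 counts, whereas this SD was 0 in both libraries for the other 7.

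Emx2 overlaps another gene in the annotation. Emx2os, an antisense gene on the minus strand from 59425104 to 59458635, shares 264 exonic bases with the first exon of Emx2. Of the 2996 distinct 31-base words of Emx2 transcripts, counted on both strands, 7.81% also occur in another gene, and Emx2os is the only gene that shares them. Emx2os was at 2.52 TPM in replicate 1 and 3.26 TPM in replicate 2, from 230 and 346 expected counts. Strand-specific counting is not given in the sources used here, so reads of the shared stretch cannot be assigned to one strand from these tables.

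Emx2 RNA was divided between a pair of annotated coding transcripts. Emx2-202, of 2 exons, took 75.8% of the TPM of Emx2 in replicate 1 and 68.3% in replicate 2. Emx2-201, of 3 exons and the only one to reach into the stretch shared with Emx2os, took 24.2% and 31.7%. In expected counts, which are not corrected for length, the gap was smaller, 190 against 116 in replicate 1 and 260 against 229 in replicate 2. The third annotated form, Emx2-203, had no count in either library.

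Tbr1, a T-box factor of early-born glutamatergic cortical neurons, was at 2.80 TPM in replicate 1 and 2.00 TPM in replicate 2. These values rest on 167 and 161 expected counts, and the credibility intervals of 2.37 to 3.52 and 1.77 to 2.52 TPM overlapped. Tbr1 (ENSMUSG00000035033.11) lies on the plus strand of chromosome 2 from 61802930 to 61814114. The coding form of 6 exons, Tbr1-201, took 77.4% of TPM in replicate 1 and 94.5% in replicate 2. The remainder was assigned to forms annotated as non-coding, Tbr1-204 with 8 and 3 expected counts and Tbr1-203 with 3.77 and 0.

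Eomes, the T-box factor of intermediate progenitors of the cortex, was the second lowest of the 8, at 1.17 TPM in replicate 1 and 1.70 TPM in replicate 2. It had 71 and 119 expected counts, with credibility intervals of 0.937 to 1.54 and 1.42 to 2.10 TPM. Eomes (ENSMUSG00000032446.10) lies on the plus strand of chromosome 9 from 118478212 to 118486132. In TPM, Tbr1 exceeded Eomes 2.39-fold in replicate 1 and 1.18-fold in replicate 2, a mean log2 ratio of 0.75 ± 0.72 that is about as large as its SD. The mean length used for Tbr1 was 3327 bases in replicate 1 and 3834 bases in replicate 2. The log2 difference of Tbr1, replicate 2 minus replicate 1, was -0.49 in TPM and -0.24 in expected counts scaled between the libraries. Eomes-201, of 6 exons, led in both libraries with 90.9% and 81.3% of TPM. An antisense gene of the later annotation, Gm33460, overlaps 118 exonic bases of Eomes and is not among the identifiers of the deposited tables.

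The 250 bases before the RefSeq start sites of Tbr1 and Eomes (RefSeq, GRCm38.p6) are shown because these related T-box genes had the highest-scoring local alignment among the 28 pairs of the 8 genes, a comparison chosen after the values were seen. Capitals mark TAATTA, a core word of many homeodomain sites that reads the same on both strands, and CCAAT or its reverse complement ATTGG. The Tbr1 window is chr2:61804203-61804452 on the plus strand, within an exon of the non-coding Tbr1-204, and the Eomes window is chr9:118477939-118478188 on the plus strand, upstream of the annotated gene.
Tbr1: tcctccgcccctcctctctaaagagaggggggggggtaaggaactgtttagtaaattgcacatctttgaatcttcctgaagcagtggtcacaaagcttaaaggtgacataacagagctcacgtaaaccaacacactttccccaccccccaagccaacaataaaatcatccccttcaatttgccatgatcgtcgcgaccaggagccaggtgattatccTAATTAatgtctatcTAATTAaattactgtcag
Eomes: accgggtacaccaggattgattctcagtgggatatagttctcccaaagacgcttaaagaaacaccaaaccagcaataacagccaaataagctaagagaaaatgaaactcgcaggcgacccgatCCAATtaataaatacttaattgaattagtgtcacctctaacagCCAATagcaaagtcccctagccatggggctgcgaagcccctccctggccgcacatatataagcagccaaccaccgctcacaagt
The alignment ran over 36 columns with 28 identical bases, from 37 to 2 bases before the start of Tbr1 and from 129 to 95 bases before that of Eomes. Its score was 29, and the next pair, Fezf2 and Lhx8, scored 27. TAATTA occurred in 1 of the 10 windows of the 8 genes, with 2 copies in Tbr1, and in 4.84% of all 32851 windows of this length. CCAAT on either strand occurred in 4 of the 10 windows (Emx2, Eomes and 2 of the 3 windows of Lhx6) and in 33.8% of all windows. The T-box core word AGGTGTGA, searched on both strands, was in none of the 10 windows and in 1.12% of all windows. These matches describe letters in the windows and say nothing of binding.

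Bcl11b, a zinc finger gene of subcortical projection neurons and striatal neurons, was the highest of the 8, at 19.0 TPM in replicate 1 and 19.8 TPM in replicate 2. It rests on 2239 and 2520 expected counts, the deepest values of the set, and the credibility intervals of 17.4 to 19.7 and 18.3 to 20.5 TPM overlapped. Among protein-coding genes its level was above 67.7% of genes in replicate 1 and 68.7% in replicate 2. Bcl11b (ENSMUSG00000048251.11) spans 93200 bases on the minus strand of chromosome 12 from 107910403 to 108003602. It was 3.11-fold below Otx2, the smallest gap to Otx2 among the 8 genes.

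Transcripts of Bcl11b were split between the full form of 4 exons, Bcl11b-201, and the form of 3 exons, Bcl11b-203. Bcl11b-201 took 68.7% of TPM in replicate 1 and 60.2% in replicate 2, and Bcl11b-203 took 31.3% and 36.3%. The form of 2 exons, Bcl11b-202, had no count in replicate 1 and 36.2 expected counts, or 3.51% of TPM, in replicate 2. Because the mix differed, the mean length used for Bcl11b was 6476 bases in replicate 1 and 6017 bases in replicate 2, and the log2 difference between the pools was 0.06 in TPM and -0.01 in scaled counts.

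Fezf2, the zinc finger gene that directs cortical neurons to subcerebral targets, was at 2.16 TPM in replicate 1 and 1.85 TPM in replicate 2. It had 88 expected counts in each library, and the credibility intervals of 1.69 to 2.56 and 1.45 to 2.20 TPM overlapped. Fezf2 (ENSMUSG00000021743.5) lies on the minus strand of chromosome 14 from 12342094 to 12348189, and none of its 3044 words of 31 bases occurs in another gene. Bcl11b, which acts with Fezf2 in cortical projection neurons, stood 9.69-fold above it (log2 3.28 ± 0.20).

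Lhx6, a LIM homeobox gene of interneurons born in the medial ganglionic eminence, was at 4.88 TPM in replicate 1 and 3.41 TPM in replicate 2. Its expected counts were 277 and 220, and the credibility intervals of 4.56 to 6.25 and 3.21 to 4.91 TPM overlapped. Lhx8, a LIM homeobox gene of cholinergic neurons of the basal forebrain, was at 3.62 TPM in replicate 1 and 2.45 TPM in replicate 2, from 120 and 81 expected counts. Its credibility intervals of 3.23 to 4.87 and 2.06 to 3.49 TPM also overlapped. In TPM, Lhx8 kept close to the same proportion of Lhx6 in both libraries, 0.742 and 0.718 (log2 -0.45 ± 0.03). In scaled counts, the log2 difference of replicate 2 minus replicate 1 was -0.75 for Lhx8 and -0.51 for Lhx6. The mean length used for Lhx8 was 1889 bases in replicate 1 and 1635 bases in replicate 2, so its TPM depends on the mix of forms. Lhx6 (ENSMUSG00000026890.15) lies on the minus strand of chromosome 2 from 36081953 to 36105408, and Lhx8 (ENSMUSG00000096225.4) on the minus strand of chromosome 3 from 154306294 to 154330659.

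Lhx6 has several annotated start sites, and most of its RNA was assigned to the start at 36104060. This start is called downstream here, relative to the upstream first exon. Lhx6-204 and Lhx6-202, which begin at 36104060, together took 91.4% of the TPM of Lhx6 in replicate 1 and 78.2% in replicate 2, from 256.5 and 178 expected counts. The 4 forms that begin in the upstream first exon took 8.60% and 16.3%, from 20.5 and 39.4 expected counts. Lhx6-206, which begins still further downstream at 36094273, had no count in replicate 1. It took 5.56% in replicate 2, from 2.97 expected counts. Lhx6-204 alone took 75.2% and 78.1%, whereas Lhx6-202 took 16.2% in replicate 1 and 0.0300% in replicate 2. The grouping by start was chosen after the values were seen, and the upstream share rests on few reads. The 250 bases before the starts at 36104060 and 36105408 (RefSeq, GRCm38.p6, minus strand, CCAAT or ATTGG in capitals) are shown because they set the more used start beside the outermost annotated one. At that outermost start no count was assigned in replicate 1, against 26.2 in replicate 2, and the upstream share of replicate 1 came from starts at 36105271 and 36105255. The downstream window, chr2:36104061-36104310, lies in an intron of the upstream forms, and the upstream window is chr2:36105409-36105658, before the gene.
Lhx6 downstream start: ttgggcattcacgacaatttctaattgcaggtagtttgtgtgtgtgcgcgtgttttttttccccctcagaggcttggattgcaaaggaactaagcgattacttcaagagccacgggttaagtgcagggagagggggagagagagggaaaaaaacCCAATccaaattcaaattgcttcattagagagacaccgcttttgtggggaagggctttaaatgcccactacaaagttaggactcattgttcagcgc
Lhx6 outermost start: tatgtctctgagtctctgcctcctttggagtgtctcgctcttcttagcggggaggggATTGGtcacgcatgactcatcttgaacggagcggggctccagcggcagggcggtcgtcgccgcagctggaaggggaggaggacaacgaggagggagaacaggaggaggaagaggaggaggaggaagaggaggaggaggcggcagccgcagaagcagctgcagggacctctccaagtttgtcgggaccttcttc
The downstream window had a GC content of 46.0% and the upstream window one of 61.6%, against a median of 52.4% over all windows. Each held CCAAT once, on opposite strands. TAATTA was in neither window.

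**Figure D2:**
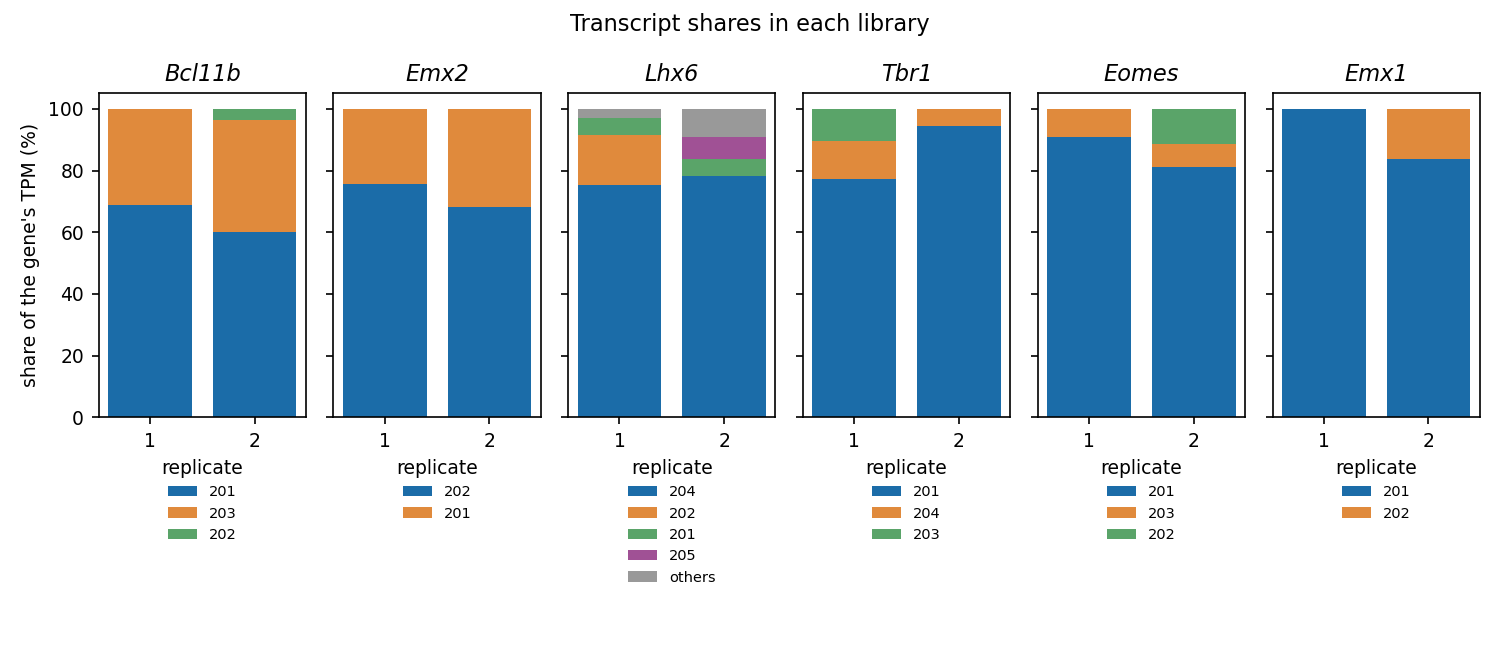
Share of each gene's TPM by annotated transcript (percent, stacked to 100) in replicates 1 and 2, for the 6 genes whose transcript models had the same length in both annotation releases; colours are the transcript numbers below each panel. The leading transcript was the same in both libraries for all 6 genes, and Lhx6-202 is seen in replicate 1 but has 0.0300% in replicate 2.

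For Fezf2 and Lhx8, transcript lengths differed between release M4 of the tables and release M21, so their forms are left out. Over all 8 genes the deposited tables list 30 transcripts, of which 15 had a count in both libraries, 17 in replicate 1 and 22 in replicate 2. For the 7 genes besides Emx2, at most 2.59% of the 31-base words occurred in another gene, the highest share being that of Eomes.

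The next comparison asks how far the pools differed in these genes. Ratios are of expected counts with 0.5 added, scaled by TMM (the trimmed mean of M-values, fitted on all genes), as log2 of replicate 2 minus replicate 1, and their 95% intervals cover counting error only. Lhx6 and Lhx8, the subpallial pair, were lower in replicate 2, at log2 -0.51 (interval -0.78 to -0.25) and -0.75 (-1.17 to -0.33). Emx2 and Eomes, both pallial, were higher in replicate 2, at log2 0.49 (0.29 to 0.71) and 0.56 (0.13 to 1.01). Bcl11b was at log2 -0.01 (-0.10 to 0.07). None of the 8 genes reached a 2-fold difference. Over the 17773 genes compared, those whose expected count averaged 10 or more, 1.33% were at least 2-fold higher in replicate 1 and 1.47% in replicate 2. Among the 12357 genes with a mean count in the range of the 8, 1.48% were past 2-fold in either direction.

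As folds, Lhx8 was 1.68-fold and Lhx6 1.43-fold higher in replicate 1, and Eomes was 1.47-fold and Emx2 1.41-fold higher in replicate 2. Emx1 was 1.59-fold higher in replicate 2, but on few reads, and its interval ran from log2 -0.21 to 1.63. The intervals of Tbr1 (log2 -0.24, from -0.56 to 0.09) and Fezf2 (log2 -0.18, from -0.63 to 0.26) also held 0. In all, 5 of the 8 genes were lower in replicate 2, against 48.1% of all genes compared, and 3 were higher, against 51.9%. Counting intervals without 0 were found for 2 genes higher in replicate 1, against 17.6% of all genes, and for 2 higher in replicate 2, against 19.9%. Credibility intervals of TPM were separate for none of the 8, against 10.5% of genes higher in replicate 1 and 7.29% higher in replicate 2.

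The 6 pallial genes had no common direction, 3 lower and 3 higher in replicate 2, with a median of log2 0.24 between -0.24 and 0.67. The median over all 8 genes was log2 -0.10, and that of all genes compared was 0.01, with the central 95% of genes between -0.74 and 0.80. Lhx8 lay marginally below that range, and the other 7 genes lay inside it.

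**Figure D3:**
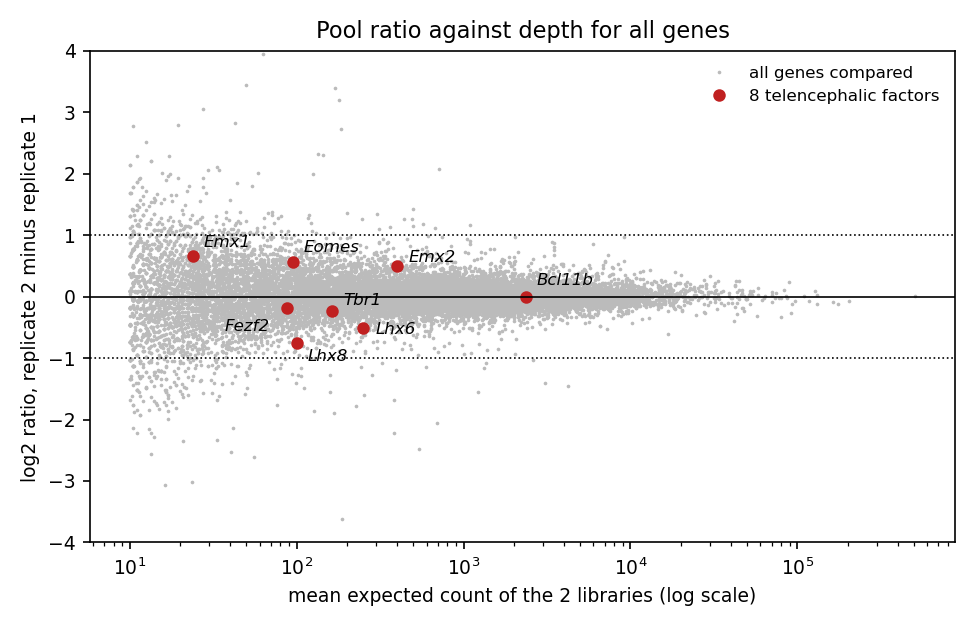
Log2 ratio between the pools (replicate 2 minus replicate 1, TMM-scaled expected counts) against the mean expected count (log axis) for 17773 genes in grey and the 8 telencephalic factors in red; dotted lines mark 2-fold, and 28 genes lie beyond the plotted range. All 8 factors lie between the dotted lines, Lhx8 lowest at -0.75 and Emx1 highest at 0.67.

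Genes within 10 kb of the 8 were compared between the pools in the same way, and 5 of them had counts. Emx2os was higher in replicate 2 by log2 0.41 (interval 0.16 to 0.65), beside 0.49 for Emx2. AI606473, a non-coding gene that begins 162 bases from Lhx8 on the opposite strand and was singled out after its values were seen, had 53 and 36 expected counts and was lower in replicate 2, at log2 -0.73 (-1.39 to -0.10), beside -0.75 for Lhx8. Sfxn5, 8587 bases from Emx1 on the opposite strand, was higher in replicate 2, at log2 0.65 (0.55 to 0.75), beside 0.67 for Emx1. Morn5, 2235 bases from Lhx6 on the opposite strand, was at log2 0.29 (-0.44 to 1.05), opposite in sign to the -0.51 of Lhx6, and Psmd14, 2554 bases from Tbr1, was at 0.06 (0.00 to 0.12) beside -0.24. Sfxn5, Morn5 and Psmd14 were also named after their values were seen. The pool difference thus had the same sign as the neighbour's for Emx2, Lhx8 and Emx1 and the opposite sign for Lhx6 and Tbr1. The counting intervals of Emx1, Tbr1 and Morn5 held 0, so the signs within their pairs are not settled. Emx2 and Emx2os share exonic bases, so their ratios may not be independent. How often neighbours share a sign over all genes was not computed.

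Other genes known from the same territories, but not all confined to them, were set beside the 8 as lists of companions. The lists were chosen with earlier results of these data known. In the subpallial list 17 of 22 genes compared were lower in replicate 2 and 5 were higher, with a median of log2 -0.23, and 4 of the 22 were at least 2-fold higher in replicate 1 (among them Dlx2, Dlx5 and Dlx6, the last named after its values were seen). Dlx2, a homeobox gene of GABAergic progenitors, was at 9.23 TPM in replicate 1 and 3.74 TPM in replicate 2 (log2 -1.27). Dlx1, its neighbour and partner, was at 46.8 and 26.3 TPM (log2 -0.88). Nkx2-1, which acts upstream of Lhx6 and Lhx8 in the ventral telencephalon and is also a hypothalamic gene, was at 4.86 and 2.71 TPM (log2 -0.79); it was singled out after its values were seen. Foxp1 and Ebf1, the highest of the subpallial list at 65.8 ± 0.332 and 44.4 ± 0.573 TPM, were at log2 0.07 and -0.05.

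In the pallial list 8 of 15 genes were lower in replicate 2 and 7 higher, with a median of log2 0.00. Its 3 highest genes were Lhx2, a LIM homeobox gene of the cortical and thalamic primordia, at 34.2 ± 4.59 TPM, the corepressor gene Tle4 at 22.3 ± 1.91 TPM and Pax6 at 18.1 ± 5.15 TPM. Neurog2, a proneural gene, was 3.21-fold higher in replicate 1, at 14.3 and 4.34 TPM, and was the only pallial companion past 2-fold. The diencephalon list, of the territory in front of the midbrain, was lower in replicate 2 in 9 of 14 genes with a median of log2 -0.24, and the midbrain territory list was higher in 13 of 18 with a median of log2 0.21. The highest diencephalic genes were Tcf7l2, a Wnt effector of the thalamus, at 793 ± 159 TPM, Lhx9 at 118 ± 17.9 TPM and Lef1 at 63.7 ± 6.92 TPM. The part of these territories in the pool differences of the 8 genes was not tested.

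**Figure D4:**
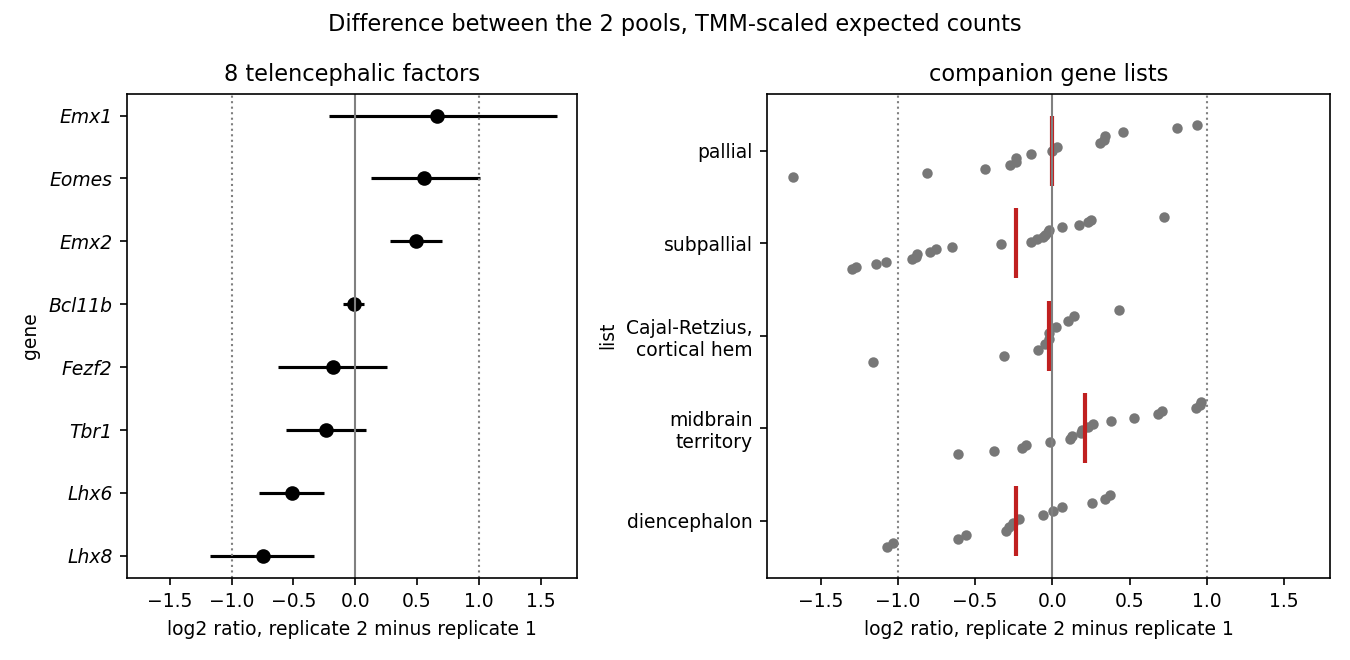
Log2 ratio between the pools (replicate 2 minus replicate 1, TMM-scaled expected counts), on the left for the 8 factors with 95% counting intervals and on the right for each gene of 5 companion lists (points) with the list median (red line); dotted lines mark 2-fold. Lhx6 and Lhx8 lie left of 0, Emx2 and Eomes right of it, and the list medians run from -0.24 for the diencephalon to 0.21 for the midbrain territory.

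Cells outside the brain that carry some of these genes were looked for by their own markers. Of 13 genes of T and NK cells, 12 were below 1 TPM in both libraries, and Cd3d, Cd8a and Ncr1 had no count. The list summed to 14.1 TPM in replicate 1 and 14.3 TPM in replicate 2, nearly all of it Lck at 13.0 and 13.5 TPM, a kinase gene also known from neurons, while Cd3e and Cd3g had at most 1 count per library. Of 10 genes of the facial mesenchyme, 4 reached 1 TPM in both libraries, the sums were 60.9 and 61.6 TPM, Barx1 had no count, and Shox2 held most of the sum at 42.6 and 45.7 TPM. Msx1 was at 11.0 and 9.03 TPM and Prrx1 at 2.33 and 2.81 TPM. Their part in the levels of Bcl11b, Eomes, Lhx6 and Lhx8 was not tested.

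Set against Otx2, the 8 genes ranged from 3.11-fold lower for Bcl11b to 75.2-fold lower for Emx1 (log2 of Otx2 to Emx1 6.23 ± 0.35). Otx2 is a gene of forebrain as well as midbrain, so it is not a reference for midbrain alone. Emx2 was 5.78-fold below Otx2, Lhx6 14.8-fold, Lhx8 20.2-fold, Tbr1 25.5-fold, Fezf2 30.1-fold and Eomes 42.7-fold. The ratio of Otx2 to Lhx8 went from 15.6 in replicate 1 to 26.3 in replicate 2, whereas that of Otx2 to Emx2 was 6.16 and 5.42.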

How the data were processed

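The 2 libraries are biological replicates by their labels; their spread may be partly technical. Per the deposited readme, reads were aligned to mm10 and quantified against GENCODE M4; which aligner, quantifier and strand setting were used is not given in the sources used here. Per the file headers, expected counts are estimated reads per gene, the deposited TPM and FPKM are scaled by effective length, and the isoform share is a percent of the gene's TPM. Per the file headers, the credibility bounds of TPM and the posterior SD of counts, kept as signal values, were deposited by the authors too.

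Symbols were joined by Ensembl identifier without version (42462 of 43346 matched); coordinates, transcript names and 31-base words came from GENCODE M21 on GRCm38, and promoter windows from RefSeq. Expected counts were rounded for TMM factors (edgeR 4.0.16, R 4.3.3) and for size factors from DESeq2 1.42.0, the alternative scale, on all Ensembl genes. Ratios used a pseudocount of 0.5 and a mean expected count of at least 10. Intervals are exact (Poisson for counts, Clopper-Pearson for ratios) at 95%; they cover counting error only, since PCR copies were not told apart from separate molecules. Alignments used biopython 1.88. The ratio step was tested on simulated data. Expected counts outside Ensembl genes, 1.49% and 2.23%, stayed out.

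The 8 genes and the 7 companion lists were chosen with earlier results of these data known. Named genes are the 8, overlapping genes at 1 TPM, the 3 highest of each list, list genes past 2-fold with a mean count of at least 50, and Otx2; the rest were named after their values were seen. Some genes that the rule takes are not reported here.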

Additional observations from a re-analysis of the deposited data

How the results depend on the processing

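All 112 alternative values stayed within the spread of the libraries or the counting interval of the value they replaced, within 1.5 times for a count, or within 0.1 for a median log2 ratio, a tolerance chosen for this work. Leaving out 1 of 2 libraries always moves a mean by less than the SD, so those values say nothing about stability. The same holds for the 14 ratios between genes taken in FPKM. Within a library FPKM is proportional to TPM, so these ratios can differ by rounding only. Of the 8 genes, 8 were detected at a minimum of 0.5 TPM and 5 at 2 TPM; leaving out replicate 1 gave 8, and leaving out replicate 2 gave 7. With DESeq2 size factors, total counts, a pseudocount of 5 or posterior mean counts none reached 2-fold. The median log2 ratio of the 8 was -0.10 under every scaling and pseudocount run, and a mean count of at least 50, which leaves out Emx1, gave -0.18 over the other 7. No ratio between the pools can be had without one of them. The difference between the pools has no replicate of its own, and Emx1, at 17 and 31 counts, is the gene that depth limits most.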

Other observations

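Cajal-Retzius cells are early neurons at the cortical surface, and the cortical hem is one of their sources. Of 10 genes of these cells and the hem, 6 were lower in replicate 2 and 4 higher, with a median of log2 -0.02 and a range from -1.16 to 0.43. The highest were Calb2, a calcium-binding protein gene, at 252 ± 16.6 TPM, Reln, the secreted glycoprotein of Cajal-Retzius cells, at 31.8 ± 0.198 TPM, and Lhx5 at 19.7 ± 0.580 TPM; none of the 3 is specific to these cells. Wnt8b, a ligand gene of the hem and other dorsal territories, was the only one past 2-fold, at 1.73 TPM in replicate 1 and 0.750 TPM in replicate 2 (log2 -1.16). In the diencephalon list Gbx2 and Prox1, homeobox genes with high levels in the developing thalamus, were past 2-fold, with Prox1 at 28.0 and 13.1 TPM (log2 -1.03) and Gbx2 at log2 -1.07.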
